A study of Mus musculus with 162 samples.

Results

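Liver (LIV) late in a short-term fast (STF) was compared with liver of the fed state, using every liver library of mice fasted for 18 h or 22 h (6 libraries, the late livers) and every liver library of mice fasted for 0 h or 2 h (6 libraries, the fed livers). These 12 libraries were chosen by organ and fasting time alone, out of 18 liver libraries and 162 libraries of 9 organs. All mice were C57BL/6J males of 8 to 9 weeks under a 12 h light and 12 h dark cycle, 3 mice a time point, each giving all 9 organs. The 0 h mice ate ad libitum, the other mice had food removed 2, 8, 12, 18 or 22 h before death and kept water, and all were killed at 1 clock time early in the dark phase. The fed livers therefore include 3 that had been without food for 2 h. No genotype, diet or agent other than food removal differed between groups.

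Each library held 6959200 to 12451777 counts over 53686 genes, and 3 counts equalled 0.250 to 0.422 CPM, the unit of scaled counts used below. Levels below are normalized CPM, counts divided by a library size scaled with the trimmed mean of M values (TMM), and 3 levels in a row are the lowest, the median and the highest of the 6 livers of an arm. The log2 fold change (log2FC) is of late over fed livers. Adjusted p comes from the quasi-likelihood test of edgeR over the 14023 genes that passed the filter on low counts. The sign ± marks an approximate standard error (SE) of the log2FC, its absolute value divided by the square root of the F statistic of that test. A gene is said to rise or fall at an adjusted p under 0.05, and to be a differentially expressed gene (DEG) if its absolute log2FC was also over 1.

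In a fast, the liver first breaks down glycogen and then makes glucose from lactate, glycerol and amino acids, while fatty acids released by fat tissue are oxidized and partly turned into ketone bodies. Insulin falls and glucagon rises, which turns down the SREBP-driven genes of fatty acid and cholesterol synthesis and turns on genes of gluconeogenesis and, through PPARα, of fatty acid oxidation. After a meal, secretory work rises and so do the chaperones of the endoplasmic reticulum (ER).

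The hepatocyte markers fitted the label in all 12 libraries. Alb, the main plasma albumin, stood at 56600.0, 59267 and 65346 in the fed livers and at 51067, 60729 and 67870.0 in the late livers. Apoa1, the main HDL protein, stood at 11256, 11576 and 13971 in the fed livers and at 11646, 14774 and 18736 in the late livers, and the carrier protein Ttr at 6537, 7756 and 8046 in the fed livers and at 6782, 7525 and 8854 in the late livers. None of the 3 passed the test in edgeR (log2FC −0.00, 0.31 and 0.02), 1 of the 3 had an unadjusted p under 0.05, and DESeq2 called 1 of the 3 higher. Without 18 h replicate 1 edgeR called 1 higher.

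Some libraries stood apart. The 0 h replicate 3 liver had 563 normalized CPM of Pck1 where the other fed livers had 4955 to 6893, 1.41 of Igfbp1 where they had 12.0 to 26.5, and 1998 of Hspa5 where they had 487 to 798. The 0 h replicates 1 and 2, in contrast, were much alike: their counts differed by a chi-square of 2.13 per gene, against 9.65 to 90.3 for the other 17 pairs of livers of 1 time point, where counting noise alone gives 1. Both were kept, as labelled replicates. Summing these 2 livers into 1 sample, an alternative chosen after seeing the data, gave 422 higher and 438 lower genes. The text of the study counts them as separate mice, which was not tested here. With the sum 14 of 67 genes named by rule lost their calls: Sqle (adjusted p = 0.0563), Nsdhl, Pmvk, G0s2 (0.0541), Gadd45g (0.0973), Fbp1 (0.0859), Sesn3 (0.0629), Slco1b2 (0.0995), Chac1, Hspa1a (0.0517), Hsph1, Stab1, Ecm1 and Spp1. The 2 h replicate 2 liver held the most counts and the highest levels of the acute phase genes Saa1 (2023) and Lcn2 (198). Values without 0 h replicate 3 or 2 h replicate 2 are given below for some genes and lists.

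Lane cannot be told apart from fasting time here. Lanes were read from the endings of the library names, and no other source was used to check them. By these, the 6 fed livers were all sequenced in lane 1 and the 6 late livers all in lane 2, so no lane held both, and of the other livers only those at 8 h were spread over both lanes (2 in lane 1 and 1 in lane 2). The share of counts on mitochondrial genes was 7.28% to 11.2% in the fed livers and 4.24% to 8.82% in the late livers (exact two-sided permutation p = 0.0152, 924 splits), and the share taken by the 10 most abundant genes was 18.1% to 20.8% against 16.6% to 19.1% (exact p = 0.0195). Total counts gave an exact p of 0.961. The part of these shares in the results below was not tested.

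In the late livers 705 genes rose and 697 fell (5.03% and 4.97% of those tested), with median log2FCs of 0.53 and −0.51. DEGs were 79 of the former and 72 of the latter (0.563% and 0.513%). At an unadjusted p under 0.05 stood 3746 of the 14023 genes, the base for list counts at that p. All 6 late livers lay above all 6 fed livers for 347 genes (2.47%) and below them for 279 genes (1.99%). DESeq2 called 942 higher and 969 lower, among them 1387 of the 1402 genes called by edgeR.

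These counts moved with single livers. Without 2 h replicate 2 they were 364 higher and 375 lower, without 0 h replicate 1 they were 397 and 433, and without 0 h replicate 2 they were 373 and 406. DEGs higher were 37, 44 and 42 in the same order and 50 without 18 h replicate 2, while DEGs lower were 41 without 2 h replicate 2 and 47 without 22 h replicate 2. With lane as a covariate in a fit of all 18 livers, where only the 8 h livers inform the lane term, 8 genes were called (0.057%), all of them among the 1402, and 1385 of the 1402 kept their sign. The lane term itself called 0 genes in edgeR (826 at an unadjusted p under 0.05, and no other tool was run on it).

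The calls also followed the base composition of the genes. The median GC share of the transcripts was 54.5% for genes that rose, 47.4% for genes that fell and 50.5% for all genes tested (98.2% of them had a value). Of 10 bins of genes ordered by GC share and equal in size but for 1 gene, the lowest had 26 rises and 122 falls and the highest had 147 rises and 22 falls. Each library's tilt, its log2 difference between GC-rich and GC-poor genes, was −0.21 to 0.01 in the fed livers and −0.03 to 0.15 in the late livers (exact two-sided permutation p = 0.00433). With an offset for GC share, chosen after seeing the data, 575 genes were higher and 562 lower, 971 of these 1137 were shared with the 1402, and the medians of GC share were 50.7% and 50.9%. Of 67 genes named by rule and called, 58 were also called with the offset, and all 67 kept their sign. The source of the tilt was not tested, and it cannot be told apart from lane.

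**Figure D1:**
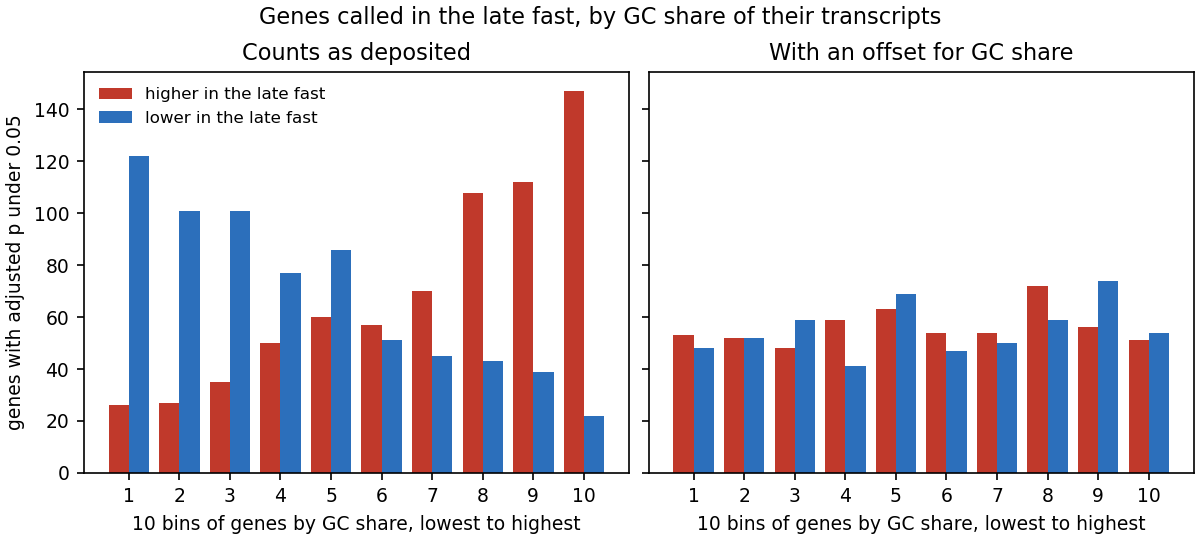
Number of genes higher (red) and lower (blue) in the 6 late against the 6 fed livers at an adjusted p under 0.05, for 10 bins of the tested genes ordered by the GC share of their transcripts, from the counts as deposited (left) and with an offset for GC share (right). On the left the counts run from 26 higher and 122 lower in the lowest bin to 147 and 22 in the highest.

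Among genes called without overlap between the arms and with a mean of at least 5 normalized CPM in the higher arm, the largest rises included enzymes, a growth factor and B cell transcripts. Erdr1 stood at 1.75, 4.33 and 5.77 in the fed livers and at 8.12, 14.7 and 27.0 in the late livers (log2FC 1.98 ± 0.31, adjusted p = 0.00329). Cyp2j9, a cytochrome P450 at chr4:96568429-96591578 on the minus strand of GRCm38, stood at 14.8, 20.2 and 29.4 in the fed livers and at 38.4, 47.9 and 53.1 in the late livers (log2FC 1.17 ± 0.14, adjusted p = 0.000366). Vegfd, a growth factor of lymphatic vessels, stood at 1.25, 2.21 and 3.25 in the fed livers and at 3.61, 5.10 and 8.76 in the late livers (log2FC 1.40 ± 0.26, adjusted p = 0.00452). For these 3 genes no late liver overlapped with a fed one, by the way they were chosen, and each was called in all 12 fits that left out 1 liver. Cyp2j9 was already at 39.2 to 47.8 in the 12 h livers and at 23.3 to 30.5 in the 8 h livers.

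The small nucleolar RNA Snord104, in chr11:106500993-106501062 on the plus strand, stood at 7.60, 8.12 and 9.99 in the fed livers and at 15.8, 17.1 and 24.8 in the late livers (log2FC 1.15 ± 0.14, adjusted p = 0.000322), and is 1 of the 8 genes called with the lane covariate (log2FC 1.70, adjusted p = 0.0429). Libraries were made from poly(A) RNA, which most small nucleolar RNAs lack, so its level is uncertain. Ighd, the heavy chain constant region of IgD on naive B cells, rose with log2FC 1.53, adjusted p = 0.0129, and Cd37, a tetraspanin of B cells, with log2FC 1.14, adjusted p = 0.0131. Both were low: Ighd ranged over 0.666 to 3.29 in fed and 3.91 to 11.0 in late livers, and Cd37 over 1.52 to 3.80 and 4.00 to 10.0. The T, NK and B cell list, given below, had no call in edgeR or in DESeq2. Chac1, which degrades glutathione and is a target of ATF4, stood at 0.422, 2.18 and 4.21 in the fed livers and at 4.67, 6.01 and 11.96 in the late livers (log2FC 1.46 ± 0.40, adjusted p = 0.0347). Its call was lost without 0 h replicate 1, 0 h replicate 2, 18 h replicate 1, 18 h replicate 2, 2 h replicate 3 or 22 h replicate 2 (adjusted p up to 0.075). The others were Ccdc152 (log2FC 1.25), Gm33543 (1.17) and Gm10030 (1.12).

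The largest falls chosen the same way mixed coding genes and pseudogenes. Nucb2, the precursor of the feeding peptide nesfatin-1, at chr7:116504369-116540584 on the plus strand, stood at 8.48, 9.17 and 12.5 in the fed livers and at 2.93, 3.37 and 4.36 in the late livers (log2FC −1.49 ± 0.16, adjusted p = 0.000322). G0s2, an inhibitor of the triglyceride lipase ATGL, stood at 118, 160.8 and 415 in the fed livers and at 38.2, 65.3 and 118 in the late livers (log2FC −1.54 ± 0.39, adjusted p = 0.0354). Map3k13, a kinase upstream of JNK, stood at 6.03, 8.10 and 9.62 in the fed livers and at 0.278, 3.32 and 4.86 in the late livers (log2FC −1.40 ± 0.33, adjusted p = 0.0168). The arms of these 3 did not overlap, by the way they were chosen, those of G0s2 by a narrow margin. The call of G0s2 was lost without 0 h replicate 1, 0 h replicate 2, 18 h replicate 1, 18 h replicate 2, 18 h replicate 3, 2 h replicate 2 or 22 h replicate 2 (adjusted p up to 0.0645). Tmem267 (log2FC −1.25, adjusted p = 0.0035) and Lad1, which encodes an anchoring filament protein (log2FC −1.21, adjusted p = 0.0073), were called in all 12 such fits.

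Gm5096 stood at 289, 495 and 559 in the fed livers and at 73.5, 119.8 and 228 in the late livers (log2FC −1.81 ± 0.30, adjusted p = 0.00491) and was also called with the lane covariate (log2FC −2.63, adjusted p = 0.0429). The pseudogenes Gm13502 (log2FC −2.21), Pgam1-ps2 (−1.46) and Gm12346 (−1.45) completed the largest falls with Derl3, described with the ER genes. Pseudogenes made up 29 of the 72 lower DEGs (40.3%), 3 of the 79 higher DEGs (3.80%) and 934 of all genes tested (6.66%). Only uniquely mapped reads were counted, so the level of a pseudogene with near-identical copies is uncertain.

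**Figure D2:**
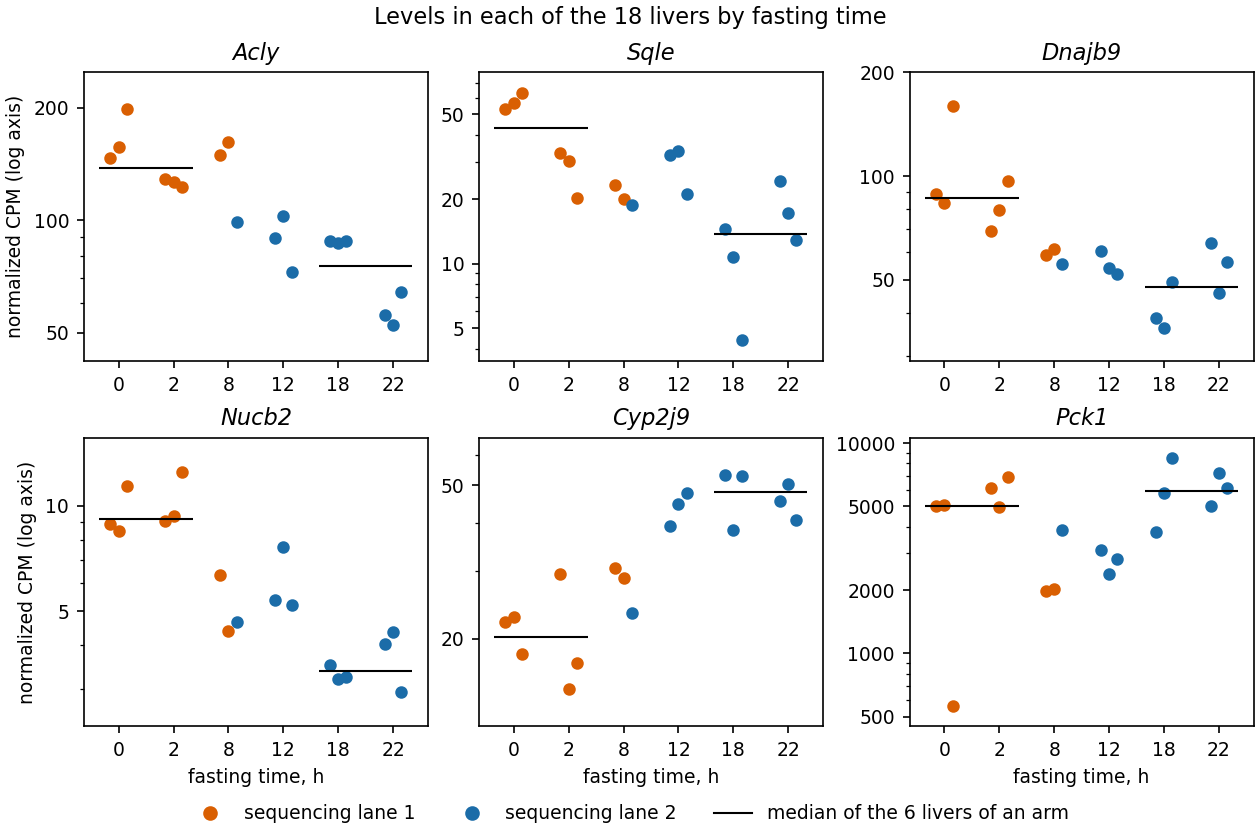
Normalized CPM on a log axis of 6 genes in each of the 18 livers by fasting time, coloured by sequencing lane, with lines at the medians of the 6 fed and the 6 late livers. Acly, Dnajb9 and Nucb2 lie lower and Cyp2j9 higher in every late than in every fed liver, Sqle overlaps in 1 late liver, and Pck1 overlaps, with 0 h replicate 3 at 563.

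Of 26 tested genes of cholesterol synthesis and uptake 10 fell, the other 16 had no call, and the median log2FC was −0.68, against 0.01 over all genes tested. All 26 log2FCs were below 0, with 22 at an unadjusted p under 0.05. Over all 14023 genes tested these counts were 6907 and 3746. Sqle, which makes squalene epoxide, stood at 20.3, 43.1 and 63.0 in the fed livers and at 4.38, 13.7 and 24.3 in the late livers (log2FC −1.61 ± 0.39, adjusted p = 0.0279). Idi1, the isopentenyl diphosphate isomerase, stood at 2.72, 5.28 and 6.46 in the fed livers and at 0.515, 2.25 and 3.06 in the late livers (log2FC −1.31 ± 0.32, adjusted p = 0.0167). Nsdhl, a sterol dehydrogenase, stood at 48.2, 63.4 and 86.6 in the fed livers and at 16.4, 28.8 and 53.0 in the late livers (log2FC −1.11 ± 0.29, adjusted p = 0.0373). All 6 late livers but 1 lay below every fed liver for Sqle and Nsdhl, and all but 2 for Idi1.

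Pmvk, a kinase of the mevalonate pathway, stood at 13.9, 22.4 and 40.5 in the fed livers and at 8.84, 13.1 and 18.7 in the late livers (log2FC −0.80 ± 0.22, adjusted p = 0.0337). Idi1 kept its call in all 12 fits that left out 1 liver. Sqle lost it without 0 h replicate 1, 0 h replicate 2, 18 h replicate 1, 18 h replicate 2 or 22 h replicate 3 (adjusted p up to 0.0595). Nsdhl kept it only without 2 h replicate 3, 22 h replicate 1 or 22 h replicate 2 (adjusted p up to 0.0764 in the others), and Pmvk only without 0 h replicate 3, 2 h replicate 1, 2 h replicate 3 or 22 h replicate 1 (up to 0.0674).

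The count for this list depended on the control time, as did that over all genes tested, and the difference between these counts was not tested. Against the 0 h livers alone 18 of the 26 members were lower (median −0.91), and against the 2 h livers alone none had a call in edgeR (median −0.29). Over all 14023 genes tested, 394 and 130 were lower in these fits. In the test of 2 h against 0 h, 3 members were lower: Fdft1, Insig1 and Sc5d, named after their values were seen. Sqle stood at 53.1, 56.6 and 63.0 in the 0 h livers and at 33.1, 30.1 and 20.3 in the 2 h livers and did not pass that test (log2FC −1.05, adjusted p = 0.207). The count of 10 was 4 without 0 h replicate 1, 0 h replicate 2, 18 h replicate 1, 18 h replicate 2 or 22 h replicate 3, 5 without 0 h replicate 3 or 22 h replicate 2, 6 without 18 h replicate 3 and 17 without 2 h replicate 3, and it was 17 in DESeq2 and 4 with 0 h replicates 1 and 2 summed. With the lane covariate edgeR called none of the 26, and the median was −0.29.

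Fatty acid synthesis showed 5 falls and 1 rise among 21 members tested (median log2FC −0.45). Acly, which makes cytosolic acetyl-CoA from citrate, stood at 123, 138 and 199 in the fed livers and at 52.6, 75.6 and 88.1 in the late livers (log2FC −1.02 ± 0.15, adjusted p = 0.00182). Acacb, the acetyl-CoA carboxylase at mitochondria, stood at 35.7, 54.0 and 64.8 in the fed livers and at 21.99, 30.3 and 32.0 in the late livers (log2FC −0.85 ± 0.14, adjusted p = 0.00231). Thrsp, a lipogenic protein of liver and fat, stood at 1308, 1576 and 1706 in the fed livers and at 553, 759 and 1307 in the late livers (log2FC −0.82 ± 0.18, adjusted p = 0.013). The arms of these 3 did not overlap. Acss2, which makes acetyl-CoA from acetate, stood at 93.3, 124 and 151 in the fed livers and at 58.5, 63.9 and 94.3 in the late livers, with 1 late liver inside the fed range (log2FC −0.84 ± 0.14, adjusted p = 0.00284). All 4 were called in each of the 12 fits that left out 1 liver. The fifth to fall was Agpat2 (log2FC −0.45, adjusted p = 0.00625), and Dgat1, which completes triglycerides, rose (log2FC 0.38, adjusted p = 0.0163). The count of falls was 8 without 18 h replicate 3, 8 in DESeq2 and 2 against the 2 h livers alone. Over all 14023 genes tested, 626, 969 and 130 fell in these fits.

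Fasn, the fatty acid synthase, stood at 213, 464 and 1187 in the fed livers and at 126, 172 and 476 in the late livers and had no call in edgeR (log2FC −1.27 ± 0.48, adjusted p = 0.12), while DESeq2 called it lower (adjusted p = 0.0467). Its highest level was in 0 h replicate 3, and without it the gene had log2FC −0.88, adjusted p = 0.217. Srebf1 (log2FC −0.26, adjusted p = 0.748), the regulator of this program, and the desaturase Scd1 (log2FC 0.11, adjusted p = 0.882) had overlapping arms. The sign of Scd1 turned without 18 h replicate 2 or 18 h replicate 3 (log2FC −0.05 and −0.16), and it had log2FC 0.67 at 18 h and −0.80 at 22 h, both with no call in edgeR. At 22 h against fed the list had 6 members lower (median −0.58) and at 18 h 6 lower and 1 higher (median −0.28). Both contrasts share the fed livers. Of all 14023 genes tested, 245 were lower at 22 h, and 807 were lower and 957 higher at 18 h.

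Lipid droplet and lipolysis genes had 3 falls among 14 tested (median −0.11). Besides G0s2 they were Plin2, a droplet coat protein that stood at 197, 226 and 292 in the fed livers and at 129, 161.4 and 174 in the late livers (log2FC −0.60 ± 0.11, adjusted p = 0.00427), and the lysosomal acid lipase Lipa (log2FC −0.52, adjusted p = 0.0108). The arms of Plin2 did not overlap, and those of Lipa did in 1 late liver.

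ER chaperones and genes of the unfolded protein response had 7 falls among 21 tested members (median log2FC −0.63). Of the 21, 15 had an unadjusted p under 0.05. Among all 14023 genes tested, 697 fell and 3746 had such a p. Derl3, a channel component of ER-associated degradation, stood at 5.07, 7.32 and 30.0 in the fed livers and at 0.857, 3.02 and 4.17 in the late livers (log2FC −2.07 ± 0.54, adjusted p = 0.036). Dnajb9, a cochaperone of the ER chaperone BiP, stood at 69.2, 86.2 and 160.1 in the fed livers and at 36.3, 47.5 and 64.1 in the late livers (log2FC −0.99 ± 0.20, adjusted p = 0.00875). Dnajc3, another of its cochaperones, stood at 162, 180.0 and 219 in the fed livers and at 96.5, 124 and 141 in the late livers (log2FC −0.63 ± 0.11, adjusted p = 0.00311). The arms of these 3 did not overlap. Pdia6, a disulfide isomerase, stood at 152, 208 and 313 in the fed livers and at 95.4, 135 and 183 in the late livers, with 4 late livers below all fed ones (log2FC −0.66 ± 0.16, adjusted p = 0.0184). The other falls were in Canx, Edem1 and Selenos.

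Hspa5, which encodes BiP itself, stood at 487, 685 and 1998 in the fed livers and at 310.0, 409 and 559.9 in the late livers and missed the threshold in edgeR (log2FC −1.08 ± 0.32, adjusted p = 0.054). It was lower in DESeq2 (adjusted p = 0.0132) and in a fit of all 6 time points together (adjusted p = 0.0144). The highest fed level was again 0 h replicate 3, and without this liver Hspa5 fell (log2FC −0.67, adjusted p = 0.011), as it did without 2 h replicate 1 (adjusted p = 0.0303). Derl3 without it had log2FC −1.47, adjusted p = 0.0156, and Dnajb9 log2FC −0.80, adjusted p = 0.00312. The number of members that fell was also 7 without 0 h replicate 3, with a median of −0.38 in place of −0.63, and it was 2 against the 2 h livers alone and 11 in DESeq2. Over all 14023 genes tested, 672, 130 and 969 fell in these fits. With the lane covariate edgeR called none of the 21, and the median was −0.30. Derl3 lost its call without 0 h replicate 1, 18 h replicate 1, 18 h replicate 3, 22 h replicate 1, 22 h replicate 2 or 22 h replicate 3 (adjusted p up to 0.0677), while Dnajb9, Dnajc3 and Pdia6 kept theirs in all 12 fits. At 18 h against fed 12 members were lower (median −0.74) and at 22 h against fed 2 (median −0.44). Of all 14023 genes tested, 807 and 245 were lower in these contrasts.

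Heat shock and cold-inducible genes had 3 falls and 1 rise among 13 tested (median −0.45). The Hsp70 gene Hspa1b stood at 20.1, 33.5 and 65.0 in the fed livers and at 6.28, 13.1 and 21.1 in the late livers (log2FC −1.56 ± 0.41, adjusted p = 0.0373). Hspa1a, its near-identical neighbour, stood at 2.28, 4.24 and 8.99 in the fed livers and at 0.190, 1.46 and 2.82 in the late livers (log2FC −1.57, adjusted p = 0.0467). Only uniquely mapped reads were counted, so the levels of this pair are uncertain. Hsph1, the Hsp105 co-chaperone, stood at 66.2, 86.3 and 147 in the fed livers and at 27.1, 51.8 and 65.8 in the late livers (log2FC −1.01 ± 0.28, adjusted p = 0.0467). The arms did not overlap for Hsph1 and did in 1 late liver for Hspa1b. Cirbp, an RNA-binding protein induced by mild cold, stood at 13.7, 21.9 and 25.5 in the fed livers and at 22.6, 35.7 and 46.2 in the late livers, with 4 late livers above all fed ones (log2FC 0.70 ± 0.19, adjusted p = 0.0274). With the GC offset neither Cirbp (adjusted p = 0.0568) nor Hsph1 (adjusted p = 0.0633) was called.

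The calls of the 3 falls changed when single livers were left out. The number of members of the list that fell was none without 0 h replicate 3, 18 h replicate 1, 18 h replicate 2, 2 h replicate 2 or 2 h replicate 3, 5 without 2 h replicate 1 or 22 h replicate 3 and 1 without 22 h replicate 2. It was 6 in DESeq2, 1 against the 2 h livers alone and none in edgeR against the 0 h livers alone. Over all 14023 genes tested, 969, 130 and 394 fell in these fits. At 18 h against fed 6 members were lower and 1 higher (median −0.65), and at 22 h edgeR called none (median −0.29). Of all 14023 genes tested, 807 were lower and 957 higher at 18 h, and 245 lower and 358 higher at 22 h. None of the 3 was called without 0 h replicate 3 (adjusted p = 0.0702 for Hspa1a, 0.0601 for Hspa1b and 0.0756 for Hsph1) or without 2 h replicate 2. Hspa1a was called only without 0 h replicate 2, 18 h replicate 3, 2 h replicate 1, 22 h replicate 2 or 22 h replicate 3 (adjusted p up to 0.105 in the others), and Hspa1b only without 0 h replicate 1, 0 h replicate 2, 2 h replicate 1, 22 h replicate 1 or 22 h replicate 3 (up to 0.0832). Hsph1 was called only without 18 h replicate 3, 2 h replicate 1 or 22 h replicate 3 (up to 0.101). In the fits that lost the call, log2FCs were −1.69 to −1.25 for Hspa1a, −1.59 to −1.35 for Hspa1b and −1.10 to −0.86 for Hsph1. Cirbp lost its rise without 0 h replicate 2, any of the 18 h livers, 2 h replicate 2, 2 h replicate 3 or 22 h replicate 3 (up to 0.0566).

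Promoters are shown for members of these chaperone lists, in which 7 of 21 and 3 of 13 members fell. The ER stress response element, searched as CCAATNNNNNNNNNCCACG on both strands in the 250 bases before to 50 after the start, was found in 9 of the 19 ER genes with a RefSeq promoter and in 39 of all 32851 promoters (0.119%), or 19 of the 9923 tested genes with a promoter (0.191%), the 9 included. It was present in 4 of the 7 ER genes that fell, of which Derl3, Dnajc3 and Pdia6 are shown with Hspa5. The heat shock element, searched as GAANNTTCNNGAA, was found in 3 of 9 genes of its list, 1 of them (Hsph1) among the 3 that fell, and in 198 of all promoters (0.603%; 0.585% of tested genes), and the sterol regulatory element, searched as TCACNCCAC, in 1 of 18 cholesterol genes, Hmgcs1, and in none of the 8 among them that fell, against 408 of all promoters (1.24%; 1.45% of tested genes). Each promoter shown holds 1 match, and none of the matches overlaps with another of these motifs. A match describes letters and not binding. Sequences are RefSeq promoters of GRCm38.p6 read 5′ to 3′ on the strand of the gene, with the matched letters in capitals. Derl3 lies at chr10:75893148-75893447 (plus strand), Hspa5 at chr2:34771840-34772139 (plus), Dnajc3 at chr14:118937682-118937981 (plus), Pdia6 at chr12:17266339-17266638 (plus) and Hsph1, with the heat shock element, at chr5:149636266-149636565 (minus).
Derl3: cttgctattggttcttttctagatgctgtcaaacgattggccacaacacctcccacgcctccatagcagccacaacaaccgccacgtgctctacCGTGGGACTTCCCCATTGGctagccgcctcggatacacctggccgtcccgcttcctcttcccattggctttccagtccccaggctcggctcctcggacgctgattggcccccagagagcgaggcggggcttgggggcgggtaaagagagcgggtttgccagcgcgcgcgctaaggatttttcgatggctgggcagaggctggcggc
Hspa5: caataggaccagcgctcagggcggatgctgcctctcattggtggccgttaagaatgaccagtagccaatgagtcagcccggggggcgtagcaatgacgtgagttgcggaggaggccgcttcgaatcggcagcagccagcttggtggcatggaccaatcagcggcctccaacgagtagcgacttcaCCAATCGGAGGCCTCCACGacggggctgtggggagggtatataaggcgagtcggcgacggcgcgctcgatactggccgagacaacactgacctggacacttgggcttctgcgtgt
Dnajc3: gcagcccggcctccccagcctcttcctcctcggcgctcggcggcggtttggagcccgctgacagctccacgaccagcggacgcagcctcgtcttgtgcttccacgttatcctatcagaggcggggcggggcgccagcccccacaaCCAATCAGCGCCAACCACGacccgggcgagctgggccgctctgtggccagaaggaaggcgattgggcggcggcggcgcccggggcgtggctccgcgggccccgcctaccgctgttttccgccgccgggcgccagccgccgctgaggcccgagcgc
Pdia6: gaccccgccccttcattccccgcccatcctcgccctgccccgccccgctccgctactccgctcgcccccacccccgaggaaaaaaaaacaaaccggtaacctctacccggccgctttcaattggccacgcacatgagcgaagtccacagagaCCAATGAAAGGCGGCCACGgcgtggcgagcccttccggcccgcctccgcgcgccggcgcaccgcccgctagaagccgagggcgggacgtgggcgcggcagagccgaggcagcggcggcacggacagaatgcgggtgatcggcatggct
Hsph1: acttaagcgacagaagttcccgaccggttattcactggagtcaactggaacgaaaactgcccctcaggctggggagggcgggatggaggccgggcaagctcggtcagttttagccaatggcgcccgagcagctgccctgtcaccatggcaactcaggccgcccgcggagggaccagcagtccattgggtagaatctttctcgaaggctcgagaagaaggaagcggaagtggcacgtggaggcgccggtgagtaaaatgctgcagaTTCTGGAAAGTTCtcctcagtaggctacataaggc

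**Figure D3:**
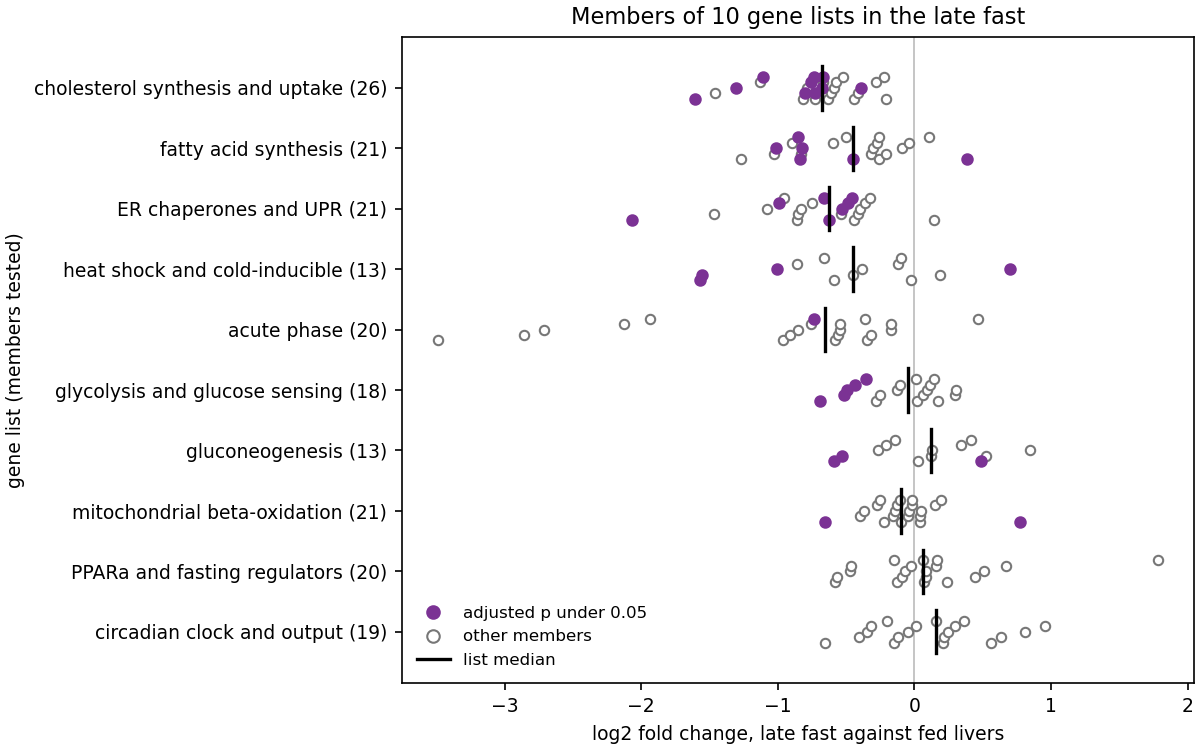
log2FC of late against fed livers for the tested members of 10 gene lists, with members at an adjusted p under 0.05 in purple, the others as open circles and the list median as a bar. The medians of the cholesterol and ER lists are −0.68 and −0.63, and those of the β-oxidation and clock lists −0.10 and 0.16.

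Of 18 genes of glycolysis and glucose sensing, 5 fell (median −0.04). Pklr, the liver pyruvate kinase, stood at 185, 228 and 309 in the fed livers and at 95.9, 144 and 228 in the late livers (log2FC −0.69 ± 0.18, adjusted p = 0.0264). Tkfc, which phosphorylates the glyceraldehyde made from fructose, stood at 513, 567 and 684 in the fed livers and at 345, 397 and 466 in the late livers (log2FC −0.52 ± 0.10, adjusted p = 0.00541). Slc2a2, the glucose transporter GLUT2, stood at 209, 292 and 343 in the fed livers and at 180.0, 209 and 221 in the late livers (log2FC −0.49 ± 0.11, adjusted p = 0.0139). The arms did not overlap for Tkfc and did in 1 late liver for Pklr and 3 for Slc2a2. Pklr lost its call without 18 h replicate 2, 18 h replicate 3 or 2 h replicate 2 (adjusted p up to 0.0646). The pentose phosphate enzyme Pgd (log2FC −0.44, adjusted p = 0.0173) and the glycogen phosphorylase Pygl (log2FC −0.35, adjusted p = 0.0261) completed the falls. The count of falls was 3 without 2 h replicate 2.

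Gluconeogenesis had 2 falls and 1 rise among 13 tested (median 0.12). Pck1, the cytosolic PEPCK that feeds the pathway, stood at 563, 5046 and 6893 in the fed livers and at 3787, 5928 and 8499 in the late livers and had no call (log2FC 0.34 ± 0.45, adjusted p = 0.671). G6pc, which releases free glucose, stood at 85.3, 246 and 313 in the fed livers and at 132, 196.1 and 292 in the late livers and had none either (log2FC −0.14 ± 0.29, adjusted p = 0.8). Most of the spread of Pck1 in the fed arm came from 0 h replicate 3, and without it the gene had log2FC 0.10, adjusted p = 0.739, and G6pc log2FC −0.32, adjusted p = 0.303. Fbp1, the fructose bisphosphatase, fell (log2FC −0.59, adjusted p = 0.0425), but was called only without 0 h replicate 3, 18 h replicate 3, 2 h replicate 1 or 2 h replicate 3 in the fits leaving out 1 liver (adjusted p up to 0.0913 in the others). Mdh1, the cytosolic malate dehydrogenase, fell (log2FC −0.53, adjusted p = 0.0108) and Crtc2, a coactivator of CREB in the glucagon response, rose (log2FC 0.48, adjusted p = 0.0125), both in all 12 such fits. The list had 1 fall in the 8 such fits where Fbp1 was not called.

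The insulin, FoxO and IGF list had 2 falls among 20 (median 0.08). The growth hormone receptor Ghr stood at 522, 546 and 576 in the fed livers and at 384, 417 and 439.7 in the late livers, with no overlap (log2FC −0.40 ± 0.08, adjusted p = 0.00717). Sesn3, a FoxO target, had log2FC −0.42, adjusted p = 0.0468 and was called only without 18 h replicate 1 or 2 h replicate 1 (adjusted p up to 0.109 in the others, 0.0659 with the GC offset). The list thus had 1 fall in the other 10 fits, and 1 rise without 18 h replicate 1. Igfbp1 had log2FC 0.06, adjusted p = 0.962 and Irs2 log2FC −0.05, adjusted p = 0.937, both with overlapping arms. Without 0 h replicate 3 Igfbp1 had log2FC −0.17, adjusted p = 0.877, and without 18 h replicate 3 log2FC −0.64, so its direction is uncertain, as is that of Irs2, whose sign turned in 5 of the 12 fits that left out 1 liver (log2FC up to 0.10 without 22 h replicate 3).

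Mitochondrial β-oxidation had 1 rise and 1 fall among 21 tested (median −0.10). Over all genes tested 5.03% rose and 4.97% fell. The 2 called members belong to the electron transfer route from acyl-CoA dehydrogenases to ubiquinone. Etfa, of the same route, had no call in edgeR (log2FC −0.12, adjusted p = 0.495). Etfb, a subunit of the electron transfer flavoprotein, stood at 37.6, 42.7 and 49.1 in the fed livers and at 52.0, 74.9 and 94.0 in the late livers (log2FC 0.78 ± 0.12, adjusted p = 0.00182). Etfdh, the dehydrogenase that takes its electrons, stood at 96.2, 113 and 126 in the fed livers and at 52.3, 68.2 and 96.2 in the late livers (log2FC −0.65 ± 0.13, adjusted p = 0.00659). Neither overlapped between arms, Etfdh by a narrow margin, and both calls held in all 12 fits that left out 1 liver. Cpt1a, the gate of fatty acids into mitochondria, stood at 130.2, 249 and 287 in the fed livers and at 170.98, 209 and 308 in the late livers (log2FC −0.16 ± 0.18, adjusted p = 0.604). Without 0 h replicate 3 it had log2FC −0.29, adjusted p = 0.173. The number of members that fell was 2 without 0 h replicate 3, 18 h replicate 3 or 2 h replicate 1.

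Peroxisomal and ω-oxidation genes had 2 falls among 22 (median 0.03). Abcd3, a peroxisomal fatty acid importer, stood at 467, 536 and 619.7 in the fed livers and at 350.4, 380.1 and 406 in the late livers (log2FC −0.51 ± 0.10, adjusted p = 0.00461). It was lower in all 6 late livers than in any fed liver. The ω-hydroxylase Cyp4a14 ranged over 10.5 to 152 in fed and 8.55 to 245 in late livers (log2FC 0.95, adjusted p = 0.461).

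Among the 6 genes of ketone body synthesis 1 fell (median −0.28). It was Slc16a6, a transporter of ketone bodies, with log2FC −0.94, adjusted p = 0.0211. Its sign turned with the lane covariate (log2FC 0.74, adjusted p = 0.525), and the number of members that fell was 2 without 0 h replicate 3, 2 h replicate 1, 2 h replicate 3 or 22 h replicate 1.

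For 20 PPARα and fasting regulator genes edgeR called 0 (median 0.07), and DESeq2 called 1 lower. At an unadjusted p under 0.05 were 2 of the 20, against 3746 of all 14023 genes tested. edgeR called 1 lower without 0 h replicate 3 or 18 h replicate 3, and 1 higher without 18 h replicate 1 or 2 h replicate 1. Fgf21, the fasting hormone of the liver, stood at 0, 0.319 and 0.962 in the fed livers and at 0.103, 1.39 and 2.64 in the late livers (log2FC 1.78 ± 0.64, adjusted p = 0.0821). It was called without 18 h replicate 1 or 2 h replicate 1 (adjusted p = 0.0319 and 0.0459). Pdk4, which spares pyruvate, had log2FC −0.47, adjusted p = 0.411, Angptl4 log2FC −0.02, adjusted p = 0.981 and Ppargc1a log2FC 0.51, adjusted p = 0.352. The arms of all 4 overlapped. Ppargc1a rose at 18 h against fed (log2FC 1.005, adjusted p = 0.0182) and had log2FC −0.05 at 22 h. The sign of Angptl4 turned without 18 h replicate 1, 18 h replicate 2, 2 h replicate 2 or 2 h replicate 3 (log2FC up to 0.22). The fold of Pdk4 came mostly from 0 h replicate 3, and without it the gene had log2FC −0.02, adjusted p = 0.975.

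Urea cycle and amino acid catabolism had 3 falls among 26 (median −0.07). Kynu, of tryptophan breakdown, stood at 116, 132 and 158 in the fed livers and at 83.8, 92.9 and 106 in the late livers, with no overlap (log2FC −0.52 ± 0.10, adjusted p = 0.00446). Gldc, of the glycine cleavage system, had log2FC −0.63, adjusted p = 0.0186. The number that fell was 5 without 0 h replicate 3, and there was 1 rise without 18 h replicate 1, 2 h replicate 3 or 22 h replicate 1.

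The ATF4 response had the rise of Chac1 and 1 fall among 17 tested (median 0.21). The fall was Cth, the cystathionine lyase, which stood at 211, 258 and 330.5 in the fed livers and at 159.9, 192 and 211 in the late livers (log2FC −0.50 ± 0.12, adjusted p = 0.0178). Its arms did not overlap, by a narrow margin. The pseudokinase Trib3 had log2FC 0.97, adjusted p = 0.0554, with 3 late livers above all fed ones and calls without 0 h replicate 2, 2 h replicate 1 or 22 h replicate 1 (adjusted p down to 0.0359), and Asns log2FC 0.21, adjusted p = 0.82. The sign of Asns turned without 18 h replicate 2 (log2FC −0.11) or 2 h replicate 1. DESeq2 called 3 members of the list higher, Trib3 among them (adjusted p = 0.0264), and with the GC offset the rise of Chac1 was lost (adjusted p = 0.0551). The list had 2 rises without 0 h replicate 3, 18 h replicate 1, 2 h replicate 1 or 22 h replicate 1, and no rise in edgeR without 0 h replicate 1, 18 h replicate 2, 2 h replicate 3 or 22 h replicate 2.

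Bile acid synthesis and transport had 3 falls among 13 (median −0.16). Slc10a1, the NTCP importer of bile acids, stood at 243, 276 and 351 in the fed livers and at 138, 168.1 and 205 in the late livers (log2FC −0.75 ± 0.12, adjusted p = 0.00218). Akr1d1, a reductase of the synthesis, stood at 130.0, 151 and 169.8 in the fed livers and at 80.8, 95.6 and 127 in the late livers (log2FC −0.61 ± 0.11, adjusted p = 0.0035). Neither overlapped. Slco1b2, an organic anion importer, had log2FC −0.39, adjusted p = 0.0437 and was called only without 0 h replicate 3, 18 h replicate 1 or 2 h replicate 3 (adjusted p up to 0.107 in the others, 0.122 with the GC offset). Cyp7a1, the rate-limiting enzyme, had medians of 108 and 105 (log2FC −0.54, adjusted p = 0.491).

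Drug-metabolising cytochrome P450s and their regulators had 4 falls among 21 (median −0.17). Cyp2c29 stood at 247, 345 and 424 in the fed livers and at 117, 175 and 257 in the late livers (log2FC −0.95 ± 0.19, adjusted p = 0.00801). Cyp2j5 stood at 326, 442 and 474 in the fed livers and at 271, 294 and 323 in the late livers (log2FC −0.55 ± 0.10, adjusted p = 0.00406). The arms of Cyp2j5 did not overlap and those of Cyp2c29 did in 1 late liver. The aryl hydrocarbon receptor Ahr (log2FC −0.73, adjusted p = 0.0154) and Cyp2f2 (log2FC −0.43, adjusted p = 0.0136) were the others. DESeq2 called 6 lower and 2 higher. At 18 h against fed 6 members were lower and 1 higher (median −0.41), and at 22 h 3 were lower and 3 higher (median 0.10). Of all 14023 genes tested, 807 were lower and 957 higher at 18 h, and 245 lower and 358 higher at 22 h. Cyp2a4, named after its values were seen, had a highest late level of 23.8 and a late median of 1.15 (log2FC 3.59, adjusted p = 0.094).

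Acute phase genes, which hepatocytes secrete in inflammation, had 1 fall among 20 tested (median log2FC −0.66). Of the 20, 13 had an unadjusted p under 0.05. Among all 14023 genes tested, 697 fell and 3746 had such a p. Crp stood at 271, 309.7 and 422 in the fed livers and at 166.3, 195 and 210.5 in the late livers, with no overlap (log2FC −0.73 ± 0.11, adjusted p = 0.00182). Saa1 stood at 19.7, 149 and 2023 in the fed livers and at 36.6, 77.8 and 166.96 in the late livers (log2FC −2.71 ± 1.12, adjusted p = 0.153). Lcn2 stood at 1.90, 25.6 and 198 in the fed livers and at 1.39, 6.66 and 13.3 in the late livers (log2FC −2.86 ± 1.12, adjusted p = 0.133). For Saa1 and Lcn2 the 3 highest livers of the 12 were 2 h replicate 2, 2 h replicate 3 and 0 h replicate 3, and the arms overlapped. The median of the list was −0.39 without 2 h replicate 2 and −0.27 against the 0 h livers alone. DESeq2 called 9 members lower, Saa1 (adjusted p = 0.0379) and Lcn2 (adjusted p = 0.0333) among them. In edgeR the count was 2 without 18 h replicate 3 and 4 without 2 h replicate 1.

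The clock list had no call in edgeR among 19 tested (median 0.16), and DESeq2 called 1 higher. It had 4 members at an unadjusted p under 0.05, against 3746 of all 14023 genes tested. Without 22 h replicate 3 edgeR called 1 lower. Per1 had log2FC 0.56, adjusted p = 0.188 and the output gene Dbp log2FC 0.81, adjusted p = 0.291. Both were lowest in 0 h replicate 3, at 34.5 and 20.3, and without it had adjusted p of 0.124 and 0.345. The median of the list without that liver was 0.06. Glucocorticoid response genes had 0 calls among 13 in edgeR and in DESeq2, with 1 at an unadjusted p under 0.05 (median 0.21, or 0.04 without 0 h replicate 3). The metallothionein Mt1 ranged over 36.0 to 1519 in fed and 111 to 534 in late livers, with medians of 78.6 and 311 (log2FC −0.46, adjusted p = 0.808). Without 2 h replicate 2 its log2FC was 0.54, so the sign turned with 1 liver.

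Growth and immediate early genes had 1 rise among 15 (median 0.54, or 0.35 without 0 h replicate 3), and DESeq2 called 2. With the lane covariate edgeR called none of the 15, and the median was 0.02. Gadd45g, a stress-induced growth arrest gene, stood at 11.1, 24.5 and 58.0 in the fed livers and at 21.99, 97.6 and 284 in the late livers (log2FC 2.101 ± 0.59, adjusted p = 0.049). All late livers but 1 lay above the fed ones. It was called only without 2 h replicate 3 or 22 h replicate 1 (adjusted p up to 0.103 in the other 10 fits, 0.0782 without 0 h replicate 3), and was not called with the GC offset (adjusted p = 0.0692). Myc (log2FC 1.74, adjusted p = 0.0998), Gadd45b (log2FC 0.71, adjusted p = 0.184), Egr1 (log2FC 0.89, adjusted p = 0.513), Map3k6 (log2FC 0.72, adjusted p = 0.173) and Fam107a (log2FC 0.54, adjusted p = 0.706) had no call in edgeR, while DESeq2 called Myc higher (adjusted p = 0.0266) and the fit of 6 time points Map3k6 (adjusted p = 0.0327). Fam107a had log2FC 1.63 in that fit, with no call (adjusted p = 0.065). Without 18 h replicate 1 Gadd45b had an adjusted p of 0.0385, and without 2 h replicate 3 Map3k6 one of 0.0246. The cell cycle list had 0 calls among 15 in edgeR and in DESeq2 (median 0.00). It had 4 members at an unadjusted p under 0.05, against 3746 of all 14023 genes tested. It had 1 rise without 2 h replicate 1, and the growth list 2 without 2 h replicate 3.

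Autophagy and lysosome genes had 1 rise among 17 (median 0.05). Tfeb, the master regulator of lysosomal genes, stood at 13.2, 16.5 and 19.6 in the fed livers and at 21.9, 23.9 and 26.9 in the late livers (log2FC 0.59 ± 0.11, adjusted p = 0.00385). Its arms did not overlap, and its call held in all 12 fits leaving out 1 liver and with the GC offset (adjusted p = 0.0206). The list had 2 rises without 18 h replicate 1 and 2 falls without 2 h replicate 1.

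Markers of zones and of other cells gave few calls, and in bulk tissue fewer cells of a type and less RNA per cell cannot be told apart. Periportal hepatocyte genes had 1 fall among 10, Cyp2f2 (median 0.05), and pericentral ones 1 among 12, Rgn (median −0.29). Rgn, a calcium-binding lactonase, stood at 971, 1051 and 1279.5 in the fed livers and at 498, 701 and 866 in the late livers, with no overlap (log2FC −0.68 ± 0.14, adjusted p = 0.00592). At 18 h against fed 5 pericentral genes were lower and at 22 h 1, where 807 and 245 of all 14023 genes tested were lower. The summed levels of the pericentral list were 7870 to 11623 in the fed livers, 6136 to 6646 in the 18 h livers and 8612 to 10353 in the 22 h livers, with Cyp2e1 the most abundant per length, and those of the periportal list 2912 to 9738 in the fed and 6151 to 12171 in the late livers, with Pck1 the most abundant. The periportal list had 1 rise without 18 h replicate 1, 2 h replicate 3 or 22 h replicate 1, and the pericentral list 2 falls without 22 h replicate 2.

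Sinusoidal endothelium had 1 rise among 10, the scavenger receptor Stab1 (log2FC 0.41, adjusted p = 0.0252), lost without 0 h replicate 1, 0 h replicate 2, 2 h replicate 2 or 22 h replicate 3 (adjusted p up to 0.0664). Stellate cells had 1 rise among 10, Ecm1 (log2FC 0.35, adjusted p = 0.0418), and bile duct cells 1 fall among 5, the secreted phosphoprotein Spp1 (log2FC −0.63, adjusted p = 0.043). None of these 3 genes was called with the GC offset (adjusted p = 0.0711, 0.202 and 0.076), and neither Ecm1 nor Spp1 without 0 h replicate 3 (adjusted p = 0.076 for each). Ecm1 also lost its call without 0 h replicate 1, 0 h replicate 2, 18 h replicate 2, 18 h replicate 3, 2 h replicate 2, 22 h replicate 2 or 22 h replicate 3 (adjusted p up to 0.102), and Spp1 without 0 h replicate 2, any 18 h liver, 2 h replicate 2, 2 h replicate 3 or 22 h replicate 3 (up to 0.079). The bile duct marker Cftr had 3 counts or fewer in all 12 livers. Median log2FCs of these 3 lists were 0.03, 0.01 and −0.48. That of bile duct cells was −0.23 without 0 h replicate 3 and turned to 0.27 with the lane covariate. Their summed levels ran over 212 to 262, 303 to 381 and 48.8 to 102 in the fed livers and 215 to 282, 319.7 to 408 and 38.2 to 58.0 in the late livers, with Stab1, Ecm1 and Spp1 the most abundant per length. The stellate count was 2 without 22 h replicate 1.

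Blood and immune lists had 0 calls in edgeR and in DESeq2: Kupffer cells and macrophages among 11 tested, none at an unadjusted p under 0.05 (median −0.21), T, NK and B cells among 7 with 2 (median 0.48), neutrophils among 3 with none (median −0.75) and red blood cells among 5 with none (median −0.14). The neutrophil median was 0.25 without 2 h replicate 2 and 1.17 with the lane covariate, so its sign turned. The Kupffer median was 0.00 without 0 h replicate 3. Summed levels of the T, NK and B cell list were 9.16, 13.7 and 18.3 in the fed livers and 11.6, 15.8 and 22.9 in the late livers, with Lck the most abundant per length. Without 18 h replicate 1 the list had 1 fall. At 18 h against fed it had 1 rise (median 0.78), and at 22 h edgeR called none (median 0.23). Of all 14023 genes tested, 957 were higher at 18 h and 358 at 22 h. Cd4 had log2FC −0.95, adjusted p = 0.105, with 5 late livers below the fed range, and an adjusted p of 0.0184 without 18 h replicate 1. Neutrophil genes summed to 2.66 to 29.2 in fed and 2.82 to 10.2 in late livers, highest in 2 h replicate 2, with S100a9 the most abundant per length and Ly6g at 3 counts or fewer throughout.

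Kupffer genes summed to 261 to 571 in the fed and 289 to 449 in the late livers, led per length by Clec4f, and red cell genes to 238 to 709 and 214 to 899, led by Hba-a1. Fat cell markers were near the floor, with Lep, Plin1 and Retn at 3 counts or fewer in all 12 livers and only Cfd tested, with 0 calls in edgeR, 0 at an unadjusted p under 0.05 and 0 in DESeq2. No pancreatic acinar gene passed the filter, and their 8 markers summed to 0.236 to 2.05 normalized CPM, with Cpb1 at 0.

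The late time points were also set against the fed livers one by one, in a fit of all 18 livers. At 18 h 1764 genes were called (12.6%), 807 of them lower, and at 22 h 603 (4.3%), 245 of them lower. Both contrasts share the fed livers. The count at 18 h was 1006 without 2 h replicate 2. The count at 22 h was 68 without 22 h replicate 2, over 68 and under 264 without 22 h replicate 3, 401 without 22 h replicate 1, 264 without 2 h replicate 2, 335 without 0 h replicate 2 and 377 without 0 h replicate 1. Acly had −0.73 at 18 h and −1.34 at 22 h (adjusted p = 0.0029 and 0.000133), and Sqle −2.03 and −1.14 (adjusted p = 0.00126 and 0.0366). The cholesterol list had 19 members lower at 18 h and 4 at 22 h. At 18 h 3 of 13 gluconeogenesis genes and 2 of 19 clock genes were higher and 1 of each list lower. At 22 h 3 of 17 autophagy and lysosome genes were higher. Over all 14023 genes tested, 957 were higher and 807 lower at 18 h, and 358 were higher at 22 h.

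The direct test of 22 h against 18 h called 0 genes in edgeR, with 1318 at an unadjusted p under 0.05, and 44 in DESeq2. It called 41 without 18 h replicate 1 and 1 without 22 h replicate 2. With no filter on low counts edgeR called 284. Among the genes that passed the filter none was thus called by edgeR with all livers, Acly (adjusted p = 0.263) and Sqle (adjusted p = 0.431) included.

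Within the fed arm, 2 h against 0 h called 20 genes (0.143%), 9 higher and 11 lower, and DESeq2 called 160. Named after their values were seen, Insig1, which holds SREBP in the ER, stood at 317, 347 and 470 in the 0 h livers and at 201, 149 and 127 in the 2 h livers (log2FC −1.25, adjusted p = 0.0372). Fdft1, the squalene synthase, stood at 114, 109 and 126 and at 71.2, 50.6 and 48.4 (log2FC −1.04, adjusted p = 0.0125). Socs3, a feedback inhibitor of cytokine signalling, stood at 7.31, 7.85 and 6.75 and at 16.4, 27.6 and 26.2 (log2FC 1.68, adjusted p = 0.0201). The levels of 2 h and 0 h livers did not overlap for these 3 genes. This count moved with every liver: it was 0 without 0 h replicate 1 (where DESeq2 was not run), 2 without 0 h replicate 2, 6 without 0 h replicate 3, 75 without 2 h replicate 1 and 1 without 2 h replicate 2 or 2 h replicate 3.

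To ask whether the late effect differed between organs, liver was set against interscapular brown adipose tissue (iBAT) and perigonadal white adipose tissue (pgWAT). The animal entered as a block. Libraries of 1 time point with the same replicate number were taken to come from 1 mouse. The labels do not state this match between organs, and it was not tested. The liver effect differed from that in iBAT (11 mice, 1 late mouse left out for a low iBAT total) for 785 of 12538 genes (6.26%), and from that in pgWAT (12 mice) for 8 of 13126 (0.0609%). The count for iBAT was 409 when genes kept in either organ were tested, and that for pgWAT was 0 in edgeR so tested and 396 without the animal term. In pgWAT lane and arm were also confounded, and in iBAT each arm was spread over several lanes.

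For G0s2 the liver effect minus the iBAT effect was −2.52 (adjusted p = 0.000551), with log2FCs of −1.54 in liver and 1.05 in iBAT. Positive differences were found for Vegfd (1.66), Cyp2j9 (1.62), Gm10030 (2.76), Stab1 (0.91) and Crtc2 (0.70), and negative ones for Nucb2 (−1.60), Dnajb9 (−1.46), Pdia6 (−0.87), Mdh1 (−0.67), Cyp2f2 (−1.78) and Pgam1-ps2 (−1.65). Against pgWAT the only gene of those named by rule was Dnajb9 (−1.37, adjusted p = 0.0362). For Acly, with log2FCs of −1.02 in liver, −2.07 in iBAT and −1.79 in pgWAT, neither difference passed (adjusted p = 0.0541 and 0.611). Within iBAT or pgWAT alone edgeR called 0 genes late against fed, with 3863 and 2529 at an unadjusted p under 0.05, and DESeq2 was not run there.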

How the data were processed

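The authors aligned the reads with TopHat2 2.1.1 to GRCm38.p5 and deposited HTSeq 0.9.1 counts of uniquely mapped reads per gene, per the submitters' processing notes. Counts of LIV, iBAT and pgWAT libraries were used as deposited. Genes reaching 1.16 CPM (10 counts in a library of median size) in at least 3 of the 18 livers were tested with edgeR 4.0.16 (quasi-likelihood, TMM, two-sided, Benjamini-Hochberg adjustment over all 14023 genes). DESeq2 1.42.0, limma 3.58.1, R 4.3.3, Python 3.11.15, pandas 2.3.3, numpy 2.4.6, scipy 1.17.1 and matplotlib 3.10.9 were also used, and the steps were tested on simulated data. Single values were compared by exact permutation over 924 splits. Gene positions and GC shares came from Gencode M21. Named genes were 31 anchors whatever their values, up to 4 called members with the largest absolute log2FC of each list, and the 10 largest rises and 10 largest falls called without overlap and with a mean of at least 5 normalized CPM in the higher arm. The 34 lists held 495 genes, of which 458 were tested. Some genes that this rule names are not reported here, though list counts include them. Members, anchors and lists were chosen with earlier results of these data known. Alternatives were other tools, scaling, filters, control times, a lane covariate, a replicate block, each library left out and, chosen after seeing the data, a GC offset and a sum of 0 h replicates 1 and 2. 1 mouse with a low iBAT total was left out of the iBAT comparison. Libraries of the other 6 organs were not used here.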

Additional observations from a re-analysis of the deposited data

Results flagged for a closer look

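In sets of 6 livers (each arm of 95 named genes and of 3 library measures), the highest or lowest liver lay far from the other 5 in 16 (8.16%). Chance gives about 1 in 20 in independent sets. All these sets came from the same 12 livers, so whether 8.16% exceeds chance was not tested. Of the 16 sets, 6 had 0 h replicate 3 as the liver that lay apart. In normalized CPM, its levels were 563 for Pck1, 130.2 for Cpt1a, 1.41 for Igfbp1, 34.5 for Per1 and 326 for Cyp2j5, each below the other fed livers, and 1998 for Hspa5, above them. The liver of 2 h replicate 3 was lowest of the fed arm for Lipa (73.7) and Idi1 (2.72), and 2 h replicate 2 had the most counts (12451777). Of the late arm, 18 h replicate 1 was lowest for Gadd45b (0.824) and highest for Cd4 (3.91) and Acss2 (94.3). Chac1 was highest (11.96) and Ahr (16.3) and Map3k13 (0.278) were lowest in 18 h replicate 2, and Acacb was lowest in 18 h replicate 3 (21.99).

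By the interaction test, with organs matched to mice by replicate number, the late effect differed in 785 genes for liver minus iBAT and 8 for liver minus pgWAT. Among named genes the log2 difference from iBAT was −2.52 for G0s2, −0.67 for Mdh1, 0.70 for Crtc2, −1.46 for Dnajb9, −0.87 for Pdia6, −1.78 for Cyp2f2, 0.91 for Stab1, 1.66 for Vegfd, 1.62 for Cyp2j9, 2.76 for Gm10030, −1.60 for Nucb2 and −1.65 for Pgam1-ps2, and that from pgWAT was −1.37 for Dnajb9. The part of lane in these differences was not tested.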

How the results depend on the processing

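The cause of the following moves was not tested, except that fewer samples entered the summed, single-control and left-out fits. Genes higher late against fed (705) were 422 with 0 h replicates 1 and 2 summed, 1088 with 6 time points fitted together, 390 against 0 h alone, 82 against 2 h alone and 4 with the lane covariate. Genes lower (697) were 438, 394, 130 and 4 with the sum, 0 h alone, 2 h alone and lane. DEGs higher (79) were 45, 15 and 4 with the sum, 2 h alone and lane, and DEGs lower (72) were 18 and 4 with 2 h alone and lane. DESeq2 gave 943 genes for 22 h against fed (603), 44 for 22 h against 18 h (0 in edgeR, 1318 at an unadjusted p under 0.05) and 160 for 2 h against 0 h (20), and no filter gave 1179, 284 and 525. Liver minus iBAT (785) was 409 with genes kept in either organ, and liver minus pgWAT (8) was 0 in edgeR so filtered and 396 without the animal term. Leaving out 1 liver gave 364 to 782 genes higher, 375 to 822 lower, 37 to 105 DEGs higher and 41 to 108 lower, 1006 to 2032 genes at 18 h, 68 to 751 at 22 h, 0 to 41 for 22 h against 18 h and 0 to 75 for 2 h against 0 h. Of 67 named genes called, 2 were also called with the lane covariate. Calls lost were 48 against 2 h alone, 17 against 0 h alone and 14 with no filter. Among the 67, 1 reversed: Slc16a6 had a log2FC of 0.74 with the lane covariate, where 13 named genes with no call also turned sign.

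With a replicate block late against fed had 602 genes higher and 592 lower. Correlations of same-numbered livers were −0.174 to 0.143, so the numbers were not taken as paired. Depth limits genes near 3 counts.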
